A study of Mus musculus with 46 samples.

Results

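DNA repair and damage checkpoint genes were followed through the RNA of sorted mouse microglia, the resident macrophages of the brain. The 39 genes were found by their symbols in each of 4 deposited tables, where they are 39 of 19762 genes in the table of adult genotypes and 39 of 24421 genes in each of the other tables. They were sorted here into 8 classes by textbook role. These were 7 checkpoint kinases and chromatin mediators, 3 subunits of the MRN complex, 7 genes of homologous recombination, 7 of the Fanconi anaemia pathway, 4 of non-homologous end joining, 5 of base excision and single-strand break repair, 2 of mismatch repair and 4 of nucleotide excision repair.

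Cells meet DNA breaks through a sensing step, a signalling step and a repair step. The MRN complex and the kinases ATM and ATR detect breaks and stalled replication forks, the kinases CHEK1 and CHEK2 pass the signal to the cell cycle, and H2AX, MDC1 and 53BP1 mark the chromatin around the break. Homologous recombination and the Fanconi pathway act mostly in S and G2 phase, whereas end joining, base excision and nucleotide excision repair also serve cells that do not divide.

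The study used bulk RNA sequencing of 46 libraries to ask how microglia at different ages, and after an inflammatory challenge, depend on Dicer, the nuclease that makes mature microRNAs. In adults of 10-12 weeks, Dicer-deficient microglia were Cx3cr1CreER:Dicerfl/- and control microglia Cx3cr1CreER:Dicer+/-, so both groups carried an inducible Cre under Cx3cr1 control and 1 Dicer allele written as a minus. One table holds whole brain adults at steady state (n = 3 Dicer-deficient, 4 control). A total brain table and a hippocampus table hold microglia 6 hours after 1 mg/kg of lipopolysaccharide (LPS), a bacterial cell wall component injected into the peritoneum, and microglia without it, labelled as steady state and in part also as PBS. Total brain had n = 4 Dicer-deficient and 4 control after LPS and 3 of each at steady state. Hippocampus had n = 2 and 2 after LPS, and 3 and 2 at steady state. The stage table holds Dicerfl/fl control microglia from E14 embryos (n = 4), newborns at P0 (n = 5) and adults of 6-8 weeks (n = 5). It also holds newborn Dicer-deficient microglia, Cx3cr1Cre:Dicerfl/fl (n = 2), in which the Cre is constitutive, compared with the 3 P0 controls labelled for that purpose. These controls are written without Cre, so in newborns the loss of Dicer and the presence of Cre cannot be told apart. Cells were gated as CD45intCD11b+F4/80+Ly6C-Ly6G-, and at E14 as CD45+CD11b+F4/80hiLy6C-Ly6G-.

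Groups follow the sample labels, because the design text writes the 2 adult genotypes alike and counts 3 rather than 4 Dicer-deficient libraries in total brain after LPS. Libraries held 898451 to 4573063 recovered reads, and 1 read was worth 0.52 to 5.37 normalized counts, which limits genes with few reads. Dicer1 passed the test in none of the 6 comparisons of Dicer-deficient with control microglia. In newborns it had 195 and 85.5 normalized counts in Dicer-deficient and 88.7, 74.1 and 57.8 in control microglia (0.83 ± 0.38 on the log2 scale), and among the adult genotypes 116.6, 150.6 and 143.7 in Dicer-deficient and 153.4, 111.6, 112.8 and 97.6 in control microglia (0.21 ± 0.29). In total brain at steady state it had 74.2, 75.9 and 107.6 in Dicer-deficient and 126.7, 100.9 and 132.1 in control microglia (-0.49 ± 0.28), and in hippocampus 18, 33 and 60.8 against 92.5 and 43 (-0.91 ± 0.66). After LPS the difference was 0.0050 ± 0.24 in total brain and 0.09 ± 0.73 in hippocampus. The Dicer1 level thus did not separate the genotypes and leaned higher in Dicer-deficient newborns, so it gives no check of the genotype labels, and gene totals do not show a deleted exon. The microglial markers P2ry12 and Cx3cr1 were present in all 46 libraries. In total brain after LPS, control library 33 had 6074 normalized counts of P2ry12, against 973.7 to 1476 in the other LPS controls and 9103 to 11450 in the steady-state controls. Newborn Dicer-deficient library 1 had the fewest reads of the stage table, 992317, and 647.3 normalized counts of Cx3cr1, against 3744 to 5801 in the P0 controls. In hippocampus, steady-state control 1 had 687.6 of Cx3cr1 and control 2 had 7139, and the 5 adult controls of the stage table ran from 490.4 to 8687.

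Most calls among these genes were made between ages. Values below are normalized counts per library, and changes are log2 fold changes on the scale log2(value + 1) ± SE, which understates the change of genes with low values. A gene was called higher or lower when limma gave it a Benjamini-Hochberg adjusted p under 0.05 over all genes tested. The labels do not state that libraries came from separate animals, so the p-values measure the spread between libraries. In adult microglia against E14 microglia, 20 of the 39 genes fell and 5 rose, where 33.3% of all genes fell and 23% rose. In adult against P0 microglia 21 fell and 3 rose, against 26.8% and 22.3% of all genes. Between P0 and E14 microglia 4 fell (H2afx, Parp1, Rad51ap1 and Chek2) and 0 rose, against 18.3% and 11%. Of genes that were higher at P0 only Rad50 had an unadjusted p under 0.05 in limma (0.42 ± 0.18), beside 15.3% of all genes, and edgeR with TMM called it, and edgeR with RLE and DESeq2 called 0 higher. The median log2 change over the 39 genes was -0.66 for adult against E14, beside -0.13 over all genes. It was -0.47 beside -0.08 for adult against P0, and -0.21 beside -0.11 for P0 against E14. The comparisons share libraries, since each stage enters 2 of them. Without overlap of libraries, 51.3% of the 39 genes lay lower and 10.3% higher in adult against E14 microglia, beside 27.1% and 18.7% of all genes. In adult against P0 microglia the shares were 33.3% and 2.56%, beside 17.7% and 14.5%. Between P0 and E14 they were 10.3% and 0%, beside 15.5% and 9.72%.

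**Figure D1:**
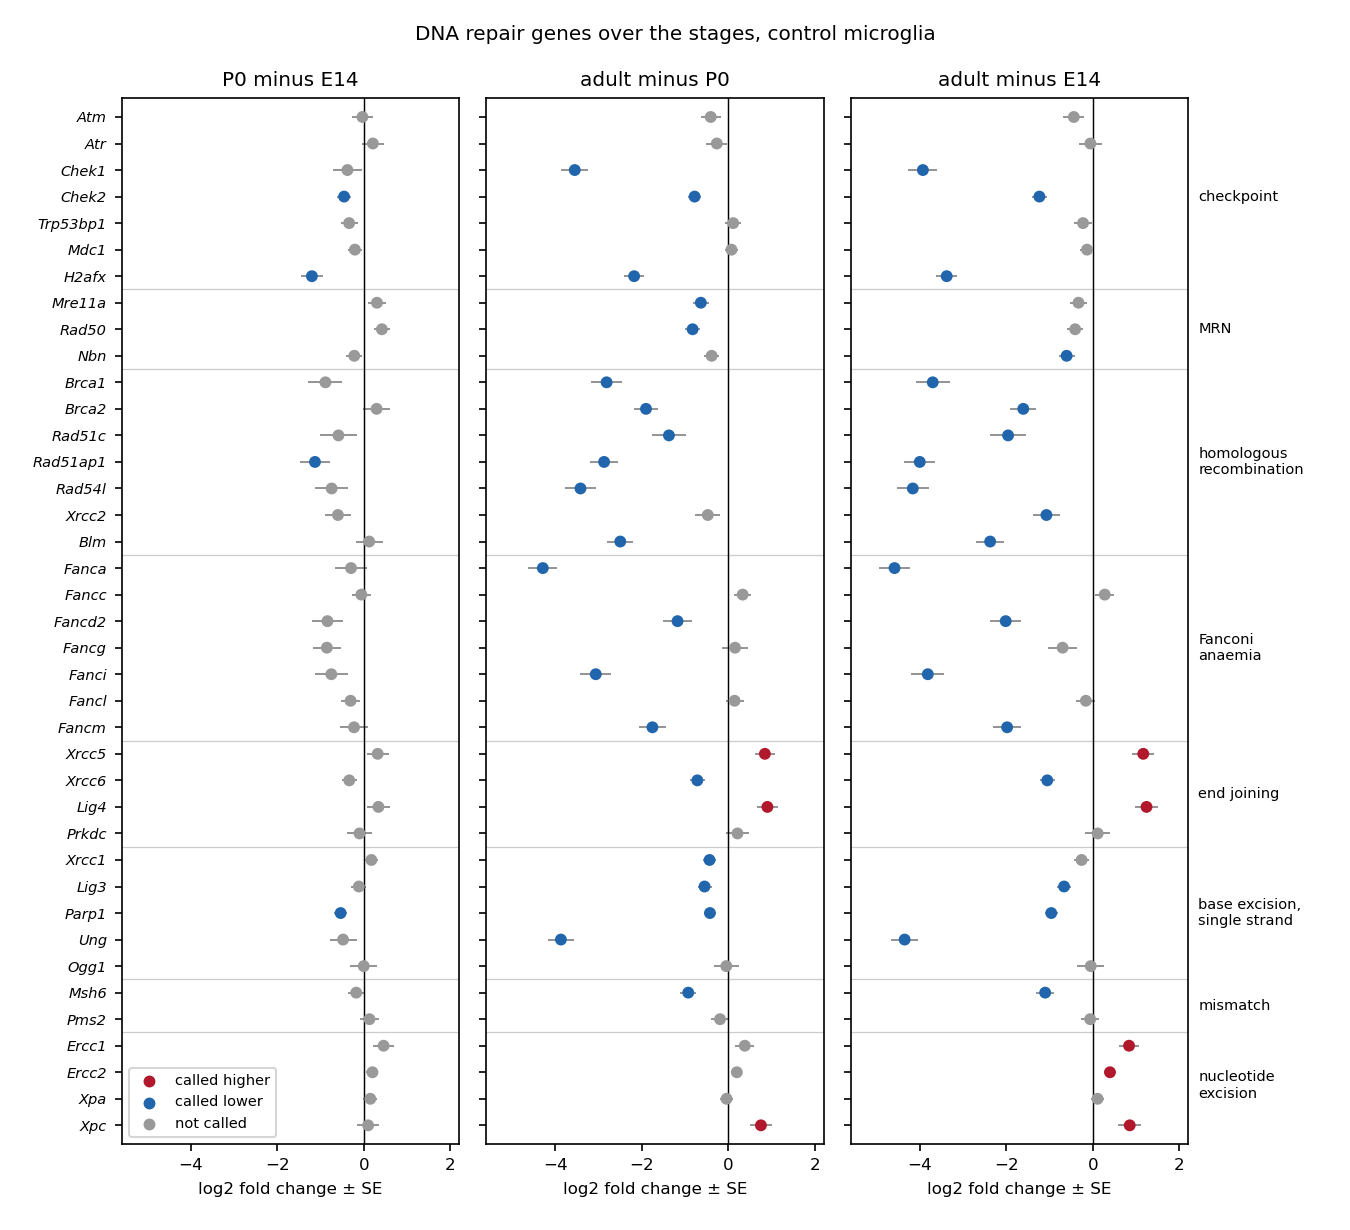
Log2 fold change ± SE (horizontal axis) of each of the 39 genes in control microglia, 1 panel per pair of stages, with genes down the page by class. Red marks genes called higher, blue genes called lower and grey genes not called. The recombination genes lie left of 0 in adult against E14 microglia, and Lig4 and Xrcc5 lie right of it.

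All 7 genes of homologous recombination, the pathway that copies a sister chromatid to mend a break, fell in adult against E14 microglia. Rad54l, a motor protein of the strand search, had 20.8, 27, 32.3 and 35.1 normalized counts at E14 and 27.6, 18.1, 17.5, 11.8 and 11.7 at P0. Adult microglia had 2.15, 0, 0.863, 0 and 1.01. No adult library reached any library of the earlier stages, and the change from E14 to adult was -4.16 ± 0.37. Rad51ap1, an accessory factor of strand invasion, had 73.9, 95.2, 94.9 and 110.5 at E14, 39.3, 52.9, 50.2, 31.9 and 38.5 at P0, and 6.46, 7.02, 10.4, 1.02 and 4.03 in adults. Its 3 stages did not overlap anywhere. It fell by 1.13 ± 0.35 between E14 and P0 (adjusted p = 0.021) and by 4.00 ± 0.35 between E14 and adult microglia.

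Brca1, the tumour suppressor that starts end resection, had 28.4, 21.8, 27.5 and 32.2 at E14, 13.1, 18.1, 26.6, 6.49 and 14 at P0, and 1.44, 2.63, 1.73, 1.02 and 0 in adults. Brca2, a mediator of strand invasion, had 34.1, 29.6, 36 and 40.3 at E14, 43.6, 51.7, 58.5, 22.4 and 49 at P0, and was lower in all 5 adult libraries, at 7.18, 11.4, 21.6, 7.11 and 11.1. The adult change against E14 was -3.70 for Brca1 and -1.61 for Brca2. The helicase Blm had 22.7, 35.9, 25.6 and 25.9 at E14, 29.1, 30.5, 37.2, 15.9 and 43.2 at P0, and 2.87, 5.26, 4.32, 8.13 and 3.02 in adults (-2.37 ± 0.32 against E14).

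Rad51c and Xrcc2, also of homologous recombination, were at a few reads. Rad51c had 13.3, 12, 9.48 and 5.18 at E14, 2.91, 8.71, 6.84, 5.90 and 7.01 at P0, and 2.15, 1.75, 0, 3.05 and 3.02 in adults (-1.96 ± 0.42 against E14). Xrcc2 had 10.7, 13.5, 20.9 and 15 at E14, 5.82, 12.4, 9.12, 11.2 and 9.34 at P0, and 7.18, 4.39, 9.49, 5.08 and 7.06 in adults (-1.07 ± 0.31). Adult values lay below every E14 value for both. All 7 recombination genes but Xrcc2 also fell between P0 and adult microglia.

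Of the 7 genes of the Fanconi anaemia pathway, which unhooks crosslinked DNA strands, 4 fell in adult microglia against either earlier stage. Fanca, a subunit of its core ubiquitin ligase, had 32.8, 49.9, 34.2 and 39.7 at E14, 39.3, 40.5, 24.3, 20.7 and 37.4 at P0, and 0.718, 0, 2.59, 0 and 1.01 in adults. Its adult change against E14, -4.58 ± 0.36, was the largest of the 39 genes. Fanci and Fancd2 are the pair that the ligase modifies. Fanci had 22.1, 17.7, 19.9 and 23 at E14, 18.9, 8.09, 10.6, 6.49 and 21 at P0, and 1.44, 0.877, 0.863, 0 and 0 in adults (-3.81 ± 0.38 against E14). Fancd2 had 11.4, 12.5, 6.64 and 9.79 at E14, 7.27, 4.98, 6.08, 4.13 and 3.5 at P0, and 1.44, 0.877, 0.863, 3.05 and 3.02 in adults (-2.01 ± 0.36). For the translocase Fancm the values were 26.5, 23.4, 19.9 and 35.7 at E14, 23.3, 25.5, 22.8, 17.7 and 21 at P0, and 5.03, 7.02, 11.2, 7.11 and 2.02 in adults (-1.98 ± 0.33). For these 4 genes no adult library reached any library of the earlier stages. Fancc, Fancg and Fancl passed in none of the 3 stage comparisons, and Fancg, with 48, 34.3, 34.1 and 33.4 at E14 and 23.3, 28.6, 16, 28.3 and 10.5 at P0, came nearest between these stages (adjusted p = 0.0563).

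The checkpoint genes split. Chek1, the kinase that answers stalled forks, had 29.7, 22.9, 23.7 and 38 at E14, 26.2, 24.3, 20.5, 13 and 25.7 at P0, and 1.44, 0.877, 1.73, 1.02 and 0 in adults. H2afx, the histone variant phosphorylated around breaks, had 538, 366.6, 394.6 and 554.3 at E14, 271.9, 206.6, 149.7, 198.8 and 181 at P0, and 57.4, 81.6, 33.7, 30.5 and 30.2 in adults. The 3 stages did not overlap for H2afx, which fell by 1.20 ± 0.25 between E14 and P0 (adjusted p = 0.00121). Its adult change against E14 was -3.38. Chek2, the kinase downstream of ATM, had 98.5, 108.7, 115.7 and 114.5 at E14, 97.4, 77.8, 79.1, 89.7 and 58.4 at P0, and 60.3, 42.1, 44, 43.7 and 41.3 in adults. Its adult change against E14 was -1.23 and its change between E14 and P0 was -0.46 ± 0.16 (adjusted p = 0.0424). That last call was lost with TMM scaling and without any 1 of the 4 E14 libraries or of P0 libraries 2, 3 and 5, with an adjusted p of up to 0.135. Atm, Atr, Mdc1 and Trp53bp1, the gene of 53BP1, passed in none of the stage comparisons, and Atm had 47.8 to 62.5 at E14, 38.4 to 83.6 at P0 and 24.6 to 55.2 in adults.

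**Figure D2:**
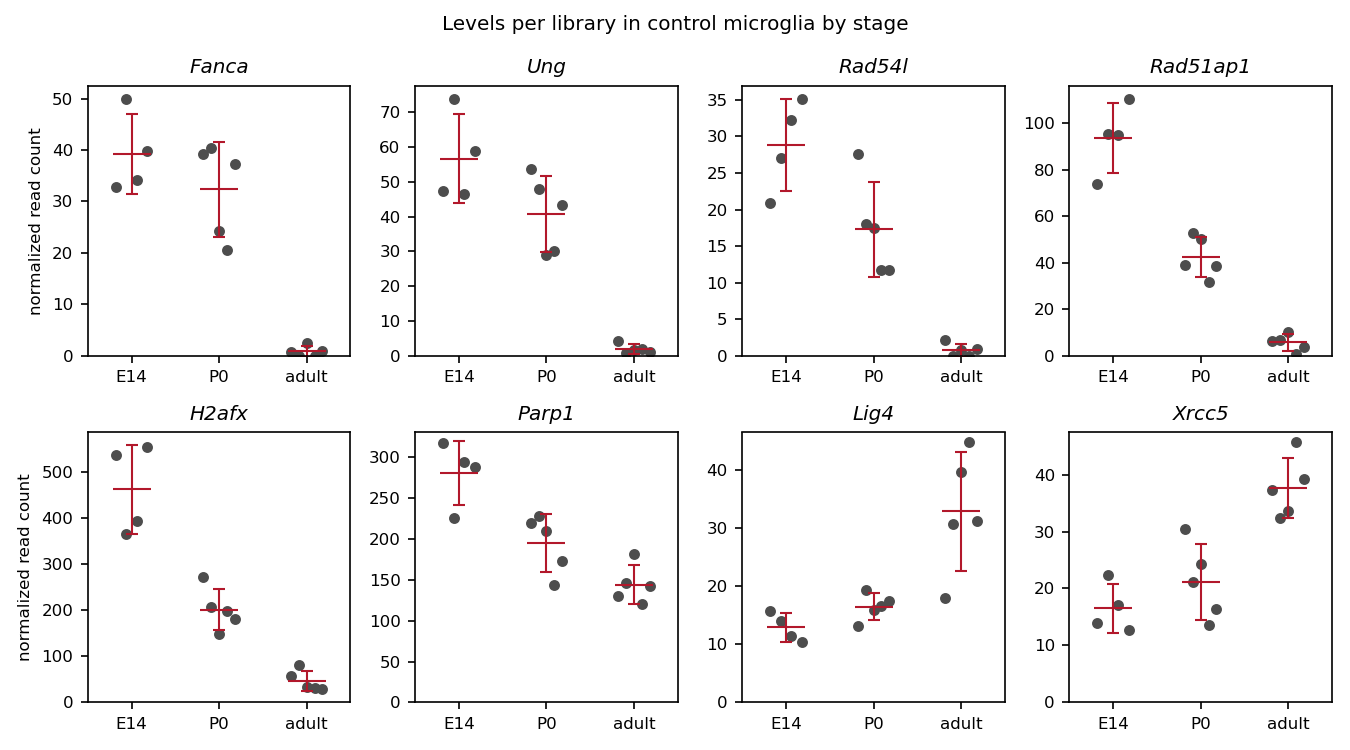
Normalized counts (vertical axes) of 8 genes in control microglia at E14, P0 and adult age. Dots are libraries, and bars are means ± SD (n = 4, 5 and 5). Fanca, Ung and Rad54l lie close to 0 in all 5 adult libraries, Parp1 keeps values from 119.9 to 182.1 there, and Lig4 and Xrcc5 have their highest means in adults.

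Among the MRN subunits, which hold broken ends together, Rad50 and the nuclease Mre11a fell between P0 and adult microglia by 0.83 and 0.63, and the signalling subunit Nbn fell by 0.61 between E14 and adult microglia. Rad50 had 96.6, 91, 89.2 and 108.2 at E14, 122.1, 146.2, 178.6, 90.3 and 121.4 at P0, and 59.6, 59.7, 80.3, 75.2 and 90.7 in adults. Its P0 values were the highest of the 3 stages except in library 4. Mre11a had 61.1, 63.5, 73.7, 43.7 and 59.5 at P0 and 45.9, 26.3, 53.5, 32.5 and 37.3 in adults, which overlapped. Nbn had 64.4, 49.4, 76.8 and 63.3 at E14 and 39.5, 43.9, 35.4, 48.8 and 38.3 in adults, which did not.

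In base excision and single-strand break repair, Ung, which cuts uracil out of DNA, had 47.4, 73.9, 46.5 and 58.7 at E14, 53.8, 47.9, 28.9, 30.1 and 43.2 at P0, and 4.31, 0.877, 1.73, 2.03 and 1.01 in adults. It changed by -4.35 ± 0.31 in adult against E14 microglia. Parp1, the sensor of single-strand breaks, had 317, 225.2, 294 and 287.8 at E14, 219.5, 227.8, 209.8, 144 and 172.8 at P0, and 130.6, 146.5, 182.1, 119.9 and 142.1 in adults, a change of -0.96. The adult values lay below every E14 value and overlapped the P0 values. Lig3, a nuclear and mitochondrial ligase, had 66.9, 69.2, 70.2 and 67.9 at E14, 59.6, 57.9, 65.4, 57.2 and 78.2 at P0, and 41.6, 34.2, 58.7, 36.6 and 47.4 in adults, and fell by 0.66 against E14 with no overlap. The scaffold Xrcc1 had 135.2, 78.4, 87.4, 76.7 and 81.7 at P0 and 64.6, 78.1, 66.4, 67 and 56.4 in adults, and fell by 0.43. It was not called against E14, and the difference between these contrasts was not tested. Ogg1, which removes oxidised guanine, passed in none of the 3 comparisons. In mismatch repair Msh6, a subunit of the mismatch sensor, had 66.9, 57.7, 75.9 and 78.3 at E14, 72.7, 70.9, 63.9, 41.3 and 63 at P0, and 32.3, 21.9, 38.8, 38.6 and 30.2 in adults (-1.10), whereas Pms2 did not pass at any stage.

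The genes that rose belong to end joining and nucleotide excision repair. Lig4, the ligase that seals joined ends, had 15.8, 14, 11.4 and 10.4 at E14, 13.1, 19.3, 16, 16.5 and 17.5 at P0, and 18, 30.7, 39.7, 44.7 and 31.2 in adults. Xrcc5, which encodes the Ku80 subunit of the ring that grips broken ends, had 13.9, 22.4, 17.1 and 12.7 at E14, 30.5, 21.2, 24.3, 13.6 and 16.4 at P0, and 37.3, 32.5, 33.7, 45.7 and 39.3 in adults. Every adult library exceeded every E14 and P0 library for Xrcc5, and for Lig4 every E14 library. The adult change against E14 was 1.24 ± 0.26 for Lig4 and 1.17 ± 0.25 for Xrcc5. Its partner Xrcc6, the Ku70 subunit, moved the other way, with 100.4, 113.4, 109.1 and 101.3 at E14, 110.5, 101.4, 73, 66.1 and 75.9 at P0, and 71.1, 43.9, 44.9, 49.8 and 47.4 in adults (-1.05). The catalytic kinase Prkdc did not pass. In nucleotide excision repair, which removes bulky lesions, 3 of the 4 genes rose in adult against E14 microglia and Xpa did not pass. The damage detector Xpc had 30.3, 29.1, 26.6 and 16.7 at E14, 26.2, 29.9, 30.4, 36 and 16.4 at P0, and 47.4, 49.1, 29.3, 44.7 and 67.5 in adults (0.85 ± 0.26 against E14), with overlap in adult library 3. The nuclease subunit Ercc1 had 18.3, 20.3, 17.1 and 16.7 at E14 and 45.2, 40.4, 25, 27.4 and 31.2 in adults (0.84 ± 0.24). The helicase Ercc2 had 106.1, 102.5, 100.5 and 103.6 at E14 and 122.8, 130.7, 138.9, 157.4 and 133 in adults (0.40 ± 0.14). The groups did not overlap for Ercc1 and Ercc2.

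With limma on other pseudocounts and with edgeR or DESeq2 on recovered reads, the counts were again 5 genes higher and 20 lower in adult against E14 microglia, and 3 higher and 21 lower against P0. Scaling moved the whole table: with TMM the median change of all genes was -0.0064 in place of -0.13 in adult against E14, and -0.003 in place of -0.11 in P0 against E14, and the genes called higher and lower in P0 against E14 became 2025 and 1926 in place of 1503 and 2496. Under that scaling the split of the 39 genes at P0 against E14 was 1 higher and 3 lower. Of the calls named here for adult microglia, Xrcc1 against P0 was lost without P0 library 1 or adult library 5 (adjusted p up to 0.0825) and Ercc2 against E14 without adult library 4 (0.0519). Rad51ap1 between E14 and P0 was lost without E14 library 4 (0.0676), and Parp1 (-0.54 ± 0.15, adjusted p = 0.0136) without E14 library 1 (0.0515).

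Another 65 repair and checkpoint genes, listed with earlier results of these data known, had 28 lower and 7 higher in adult against E14 microglia. Among them the fork protein Clspn changed by -4.58, the inhibitory kinase Wee1 by -4.31, the flap nuclease Fen1 by -2.69 and the ATR activator Topbp1 by -2.23, while the lesion sensor Ddb2 rose by 1.07 and Rad51d, of homologous recombination, by 0.92. All 25 DNA replication genes and all 20 mitosis genes on the lists fell in the same comparison, with medians of -3.54 and -5.14. The summed level of the replication genes was 3887 to 4177 at E14, 1895 to 3169 at P0 and 471.3 to 669.3 in adults. Markers of other cells moved with age as well. All 7 neural progenitor markers and all 8 neuron markers were called lower in adults. Summed progenitor markers ran from 1048 to 2123 at E14, 204.1 to 287.9 at P0 and 22.4 to 30.7 in adults, where Sox2 and Sox11 were at 0 in all 5 libraries. Summed neuron markers ran from 330.4 to 838.9 at E14, 104.5 to 237 at P0 and 6.14 to 15.5 in adults. Erythroid markers were highest at P0, at 10160 to 43180. The part of these cells in the fall of the repair genes was not tested, and in bulk libraries fewer cells of a type and less RNA per cell cannot be told apart.

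Promoters are shown because many of the repair genes fell in the same comparison as the replication genes. RefSeq gives windows of 250 bases before to 50 bases from the transcript start for 32 of the 39 genes, on GRCm38.p6. The E2F letters TTTCCCGC, TTTGGCGC, TTTCGCGC and TTTGCCGC were searched on both strands. They were found in 7 of the 32 genes (21.9%), against 2.6% of 27025 genes with a window. Of the 16 genes with a window that were lower in adult than E14 microglia 5 held a match, of the 4 that were higher 0 did, and of the 12 not called 2 did. The 5 lower genes with a match changed by -1.05 (Xrcc6) to -1.96 (Rad51c). Fanca, Ung, Rad54l, Rad51ap1, Chek1, Fanci, Brca1, Blm and Fancm fell more, from -1.98 (Fancm) to -4.58 (Fanca), and held no match. Lig3 and Parp1 fell less and held none either. The 5 lower genes are printed 5′ to 3′ on the gene's own strand, with the match in capitals. Their windows are Chek2 at chr5:110839733-110840032 (plus strand), Brca2 at chr5:150522371-150522670 (plus), Rad51c at chr11:87404457-87404756 (minus, the first of its 2 windows), Xrcc6 at chr15:82016119-82016418 (plus) and Msh6 at chr17:87974800-87975099 (plus).
Chek2: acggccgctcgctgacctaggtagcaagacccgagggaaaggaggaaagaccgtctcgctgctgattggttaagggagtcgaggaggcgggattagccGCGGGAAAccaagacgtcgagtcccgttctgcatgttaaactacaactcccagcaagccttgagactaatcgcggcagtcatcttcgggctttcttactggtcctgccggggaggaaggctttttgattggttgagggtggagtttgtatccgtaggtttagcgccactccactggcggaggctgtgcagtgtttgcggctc
Brca2: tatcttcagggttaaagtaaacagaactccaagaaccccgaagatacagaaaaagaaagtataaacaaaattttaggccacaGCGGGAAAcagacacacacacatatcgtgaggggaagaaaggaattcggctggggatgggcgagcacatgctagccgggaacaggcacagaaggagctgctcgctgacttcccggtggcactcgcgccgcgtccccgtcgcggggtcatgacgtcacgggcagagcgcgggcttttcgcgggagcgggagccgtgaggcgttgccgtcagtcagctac
Rad51c: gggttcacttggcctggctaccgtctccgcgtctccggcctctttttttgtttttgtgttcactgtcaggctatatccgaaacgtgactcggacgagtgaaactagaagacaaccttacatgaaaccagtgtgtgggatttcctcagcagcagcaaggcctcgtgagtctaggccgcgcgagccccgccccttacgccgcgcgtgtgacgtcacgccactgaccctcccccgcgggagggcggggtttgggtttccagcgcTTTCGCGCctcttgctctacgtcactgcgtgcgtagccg
Xrcc6: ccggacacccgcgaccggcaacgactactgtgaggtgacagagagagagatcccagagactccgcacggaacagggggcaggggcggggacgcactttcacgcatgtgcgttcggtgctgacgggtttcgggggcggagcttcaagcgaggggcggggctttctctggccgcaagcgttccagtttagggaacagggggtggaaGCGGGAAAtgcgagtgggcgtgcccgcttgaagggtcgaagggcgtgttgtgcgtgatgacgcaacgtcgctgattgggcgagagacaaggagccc
Msh6: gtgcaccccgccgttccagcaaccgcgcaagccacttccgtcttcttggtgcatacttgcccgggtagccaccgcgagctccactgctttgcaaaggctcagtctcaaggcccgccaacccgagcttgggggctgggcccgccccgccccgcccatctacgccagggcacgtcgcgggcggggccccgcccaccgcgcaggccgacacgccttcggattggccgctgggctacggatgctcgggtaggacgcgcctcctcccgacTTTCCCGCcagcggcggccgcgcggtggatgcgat
In Chek2, Brca2 and Xrcc6 the capitals read GCGGGAAA, the reverse complement of the first form, and begin 152, 168 and 46 bases before the start. In Rad51c and Msh6 they read TTTCGCGC and TTTCCCGC and begin at bases 12 and 16, with the start counted as the first base. The other 2 genes with a match, Mdc1 and Fancg, were not called in any stage comparison. The CCAAT letters stood in 19 of the 32 windows (59.4%), against 41.1% of all genes, and the CHR letters TTTGAA in 0, against 20.2%. A match describes letters in a window and is not a binding site.

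In newborns, Dicer-deficient microglia were compared with controls of the same age. No gene of the 39 passed the limma test, where 1.48% of all genes did. At an unadjusted p under 0.05 there were 14 of 39, beside 20.9% of all genes. edgeR called 0 with TMM and 1 with RLE (Xrcc5), and DESeq2 0, where they called 3.03%, 3.74% and 4.38% of all genes. Values nonetheless lay mostly on the low side. The fold change was negative for 33 of the 39 genes (84.6%, beside 52.9% of all genes), with a median of -0.66 beside -0.06. For 19 genes (48.7%, beside 20.6% of all genes) both Dicer-deficient libraries lay below all 3 controls, and for 2 genes, Ercc2 and Xpc, both lay above (5.13%, beside 17.3%). The counts below all controls were 3 of 3 for MRN, 5 of 7 for homologous recombination, 3 of 4 for end joining, 3 of 7 for the checkpoint genes, 2 of 7 for Fanconi genes, 2 of 5 for base excision repair, 1 of 2 for mismatch repair and 0 of 4 for nucleotide excision repair.

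The 5 genes with the smallest p in newborns are given as values. Xrcc5 had 2.60 and 7.02 normalized counts in Dicer-deficient and 30.5, 21.2 and 24.3 in control microglia (-2.28 ± 0.52, adjusted p = 0.0649), and 2.60 is the worth of 1 read in library 1. Msh6 had 13 and 42.1 in Dicer-deficient and 72.7, 70.9 and 63.9 in control microglia. Brca2 had 2.60 and 29.3 in Dicer-deficient and 43.6, 51.7 and 58.5 in control microglia. Groups did not overlap for these 3 genes, and the Dicer-deficient libraries differed several-fold from each other. Rad51ap1 had 26 and 14.1 in Dicer-deficient against 39.3, 52.9 and 50.2 in control microglia, and Ung had 18.2 and 15.2 against 53.8, 47.9 and 28.9. Adjusted p for these 4 genes was 0.13 to 0.14. Library 1 lay below all controls for 27 of the 39 genes and library 2 for 25, beside 38.8% and 33.5% of all genes.

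**Figure D3:**
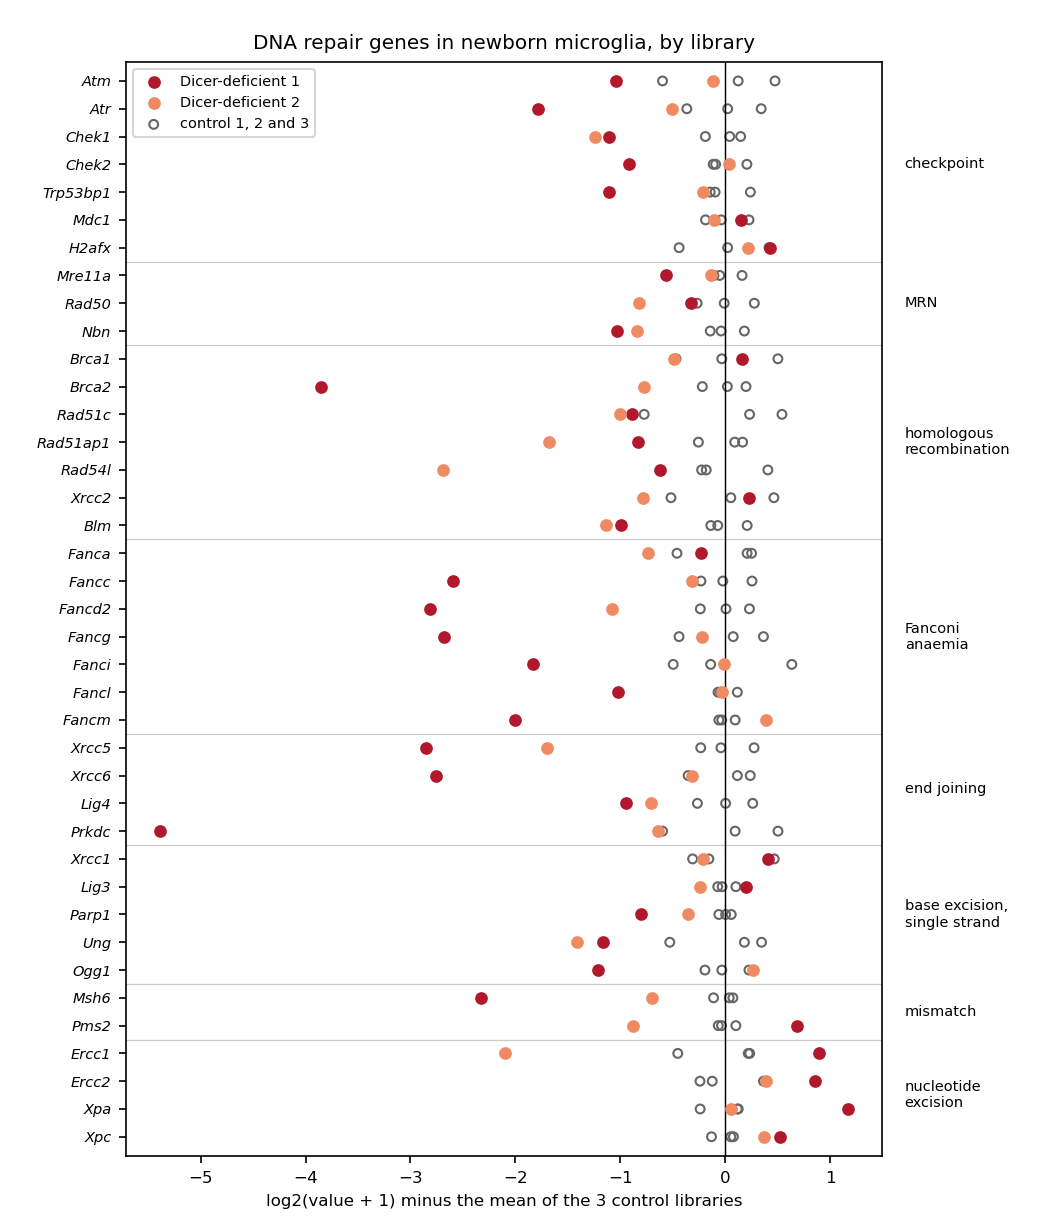
Position of each of the 39 genes in the 2 newborn Dicer-deficient libraries, as log2(value + 1) minus the mean of the 3 P0 controls (horizontal axis), with the single controls beside them. Most Dicer-deficient points lie left of 0, and those of Ercc2 and Xpc lie right of all controls.

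The newborn result depends on which libraries are used. Without Dicer-deficient library 1, 4 of the 39 genes were called lower (Ercc1, Rad51ap1, Rad54l and Xrcc5) and 0 higher, where 2.58% of all genes were lower and 2.73% higher. Without library 2, 18 were called lower and 2 higher, but calls over the whole table also grew, to 18.9% of all genes lower and 18.3% higher. Each time 1 library is left in the group and is assumed to vary like the controls. For Ercc1 the 2 libraries disagreed, with 44.2 in library 1 and 4.68 in library 2, on either side of the 3 controls (27.6, 16.8 and 27.4). With all 5 P0 controls, an alternative chosen after seeing the data, Ung and Xrcc5 were called lower, where 4.14% of all genes were. Other lists are given beside the shares over all genes, of which 20.6% lay below all 3 controls and 17.3% above them. Replication genes had 19 of 25 below all controls, of which Mcm2, Mcm4 and Mcm6 were called lower, and mitosis genes 11 of 20. Mcm2, a subunit of the replicative helicase, had 26 and 28.1 in Dicer-deficient and 142.5, 139.4 and 114.8 in control microglia. Of the other 65 repair genes 23 lay below all controls, and Exo1, a resection nuclease, was called lower (-3.59). Of 21 measured p53 targets 0 lay below all controls and 5 above them (23.8%, beside 17.3% of all genes). Cdkn1a, the cell cycle inhibitor p21, had 1279 and 1378 in Dicer-deficient and 341.7, 464.8 and 607.3 in control microglia, and Perp had 104 and 80.8 against 2.91, 8.09 and 4.56, and both were called higher.

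Some markers of cell types also differed between the newborn genotypes. Summed progenitor markers were 626.2 and 943.6 in Dicer-deficient libraries and 204.1 to 287.9 in the 5 P0 controls, most of it Vim, the only marker on the lists that was called, while Sox2, Pax6 and Hes5 had at most 7.80 in Dicer-deficient microglia. Both Dicer-deficient libraries lay below all 3 controls for 4 of 5 tested erythroid markers, 3 of 5 oligodendrocyte markers, 2 of 3 astrocyte markers, 2 of 8 neuron markers and 4 of 11 microglial markers. They lay above all controls for 2 of 11 microglial, 2 of 7 border macrophage, 1 of 7 progenitor and 1 of 2 endothelial markers. Over all genes 20.6% lay below and 17.3% above. The neuron share below (25%) and the microglial (18.2%) and progenitor (14.3%) shares above were near those over all genes. Summed erythroid markers were 6322 and 11810 in Dicer-deficient libraries and 10160 to 43180 in the 5 P0 controls, and summed microglial markers were 59870 and 85890 against 44430 to 57340. Summed astrocyte markers were 2.60 and 19.9 against 35.5 to 59. The part of these markers in the result was not tested.

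For Xrcc5 the direction recurred across tables. Its values in Dicer-deficient microglia without LPS were lower than controls in all 4 tables, although no comparison passed the adjusted test. In the adult table Xrcc5 had 44.1, 54.1 and 46.4 in Dicer-deficient and 108.9, 111.6, 64.4 and 148.9 in control microglia (-1.10 ± 0.38, adjusted p = 0.116). In total brain it had 31.8, 10.5 and 22.8 in Dicer-deficient and 41.6, 57.2 and 68.9 in control microglia (-1.42 ± 0.56, adjusted p = 0.211). In hippocampus it had 14.8, 8.72 and 28.4 in Dicer-deficient and 54.9 and 117.4 in control microglia (-2.30 ± 0.81, adjusted p = 0.312). No Dicer-deficient library reached a control in any of these tables. Of the 30 repair genes tested in all 4 tables it was the only 1 lower without overlap in each, and 69 of 10239 genes (0.674%) were. No repair gene was higher in each, and 0.996% of all genes were.

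**Figure D4:**
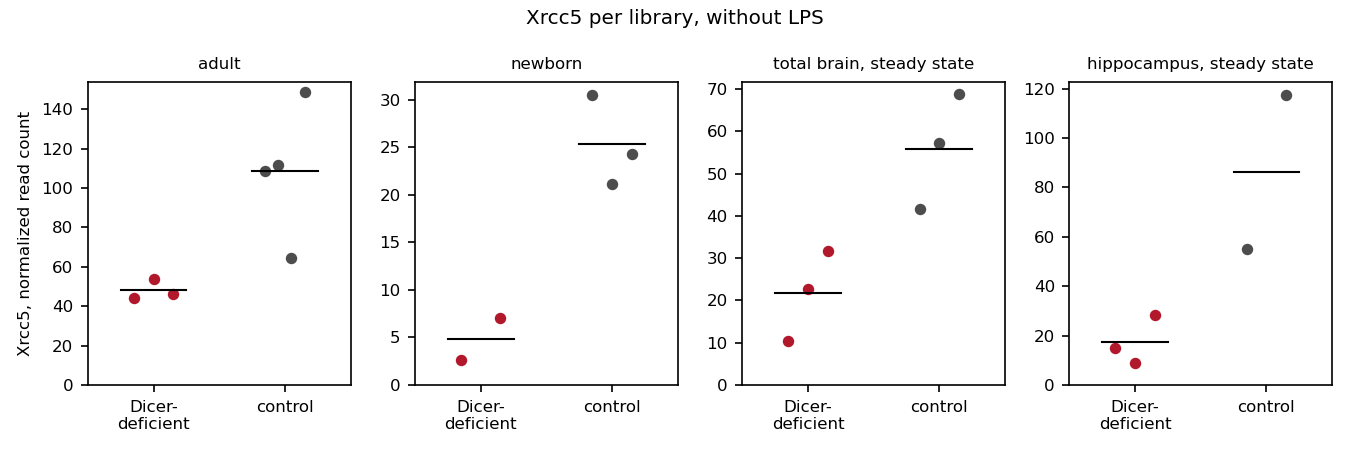
Normalized counts of Xrcc5 (vertical axes) in Dicer-deficient and control microglia without LPS, 1 panel per table. Dots are libraries and lines are group means. The Dicer-deficient libraries lie below every control in each panel, and levels are not comparable between panels because the tables were normalized separately.

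After LPS the total brain difference in Xrcc5 was of like size but the groups overlapped, with 32.4, 4.20, 27.2 and 23 in Dicer-deficient and 32, 40.6, 43.4 and 48.5 in control microglia (-1.17 ± 0.48, adjusted p = 0.145). In hippocampus after LPS it had 50 and 27.6 in Dicer-deficient and 35.9 and 38.1 in control microglia, a difference of 0.01 ± 0.88.

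For the adult genotypes limma called 0 of the 35 repair genes tested, where 5.15% of all genes were. Xrcc5 alone had an unadjusted p under 0.05, beside 18.8% of all genes, and edgeR and DESeq2 called 0. Rad51c, Ung and Xpa were too low to test. Atr was listed at 0 in all 7 libraries, whereas it was above 0 in every library of the other 3 tables. The adult table also lists fewer genes and the annotation behind it is not given in the sources used here, so the listed 0 does not show that these cells lacked Atr. Parp1 had 634.8, 459.5 and 551.6 in Dicer-deficient and 420.7, 462.5, 418.9 and 400.6 in control microglia (0.35 ± 0.18, adjusted p = 0.293). H2afx had 217.7, 158.3 and 102 in Dicer-deficient against 79.2, 123.6, 48.3 and 138.7 in control microglia, and Chek2 had 121.8, 119.7 and 46.4 against 99, 131.6, 166.5 and 179.7. Fanca had 46.6, 54.1 and 92.7 in Dicer-deficient and 24.8, 31.9, 91.3 and 20.5 in control microglia. The groups overlapped for these 4 genes.

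In total brain at steady state 0 of 38 tested repair genes were called between genotypes (2.18% of all genes), with 7 of 38 at an unadjusted p under 0.05 in limma, beside 15.7% of all genes, and 0 called by edgeR or DESeq2. With TMM the genes called higher and lower over the whole table were 118 and 109, in place of 107 and 185. Besides Xrcc5, the smallest p belonged to Xrcc1 (-0.57 ± 0.21), Mdc1 (-0.60 ± 0.23), Parp1 (0.58 ± 0.24) and Rad51ap1 (-1.84 ± 0.83), with adjusted p of 0.194 to 0.29. Xrcc1 had 52.1, 58.3 and 60.9 in Dicer-deficient and 77.5, 100.9 and 78.1 in control microglia, and Mdc1 had 82.9, 56.2 and 84.7 against 103.1, 100.9 and 133.2. Parp1 had 246.8, 377.3 and 260.8 in Dicer-deficient and 210.8, 165.7 and 209.1 in control microglia. The groups did not overlap for these 3 genes, whereas Rad51ap1, with 1.90, 9.10 and 0 against 14.2, 10.1 and 6.90, overlapped. Over all genes 13.7% lay lower and 9.15% higher without overlap, beside 10.5% and 13.2% of the 38 repair genes.

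At 6 hours after LPS, 4 checkpoint and break-sensing genes were lower and 1 was higher in Dicer-deficient than in control microglia of total brain, of 38 tested, where 5.46% and 3.93% of all genes were. Atm, the kinase that answers double-strand breaks, had 30.6, 19.5, 18.3 and 29.5 in Dicer-deficient and 60.9, 83.9, 62.5 and 66.4 in control microglia (-1.47 ± 0.26, adjusted p = 0.00222). Rad50 had 18.5, 28.8, 26 and 39.4 in Dicer-deficient and 44.4, 61.4, 56.6 and 69.3 in control microglia (-1.04 ± 0.26, adjusted p = 0.0168). No Dicer-deficient library reached a control for either gene. Trp53bp1 went the other way, with 77.8, 81.3, 76.9 and 85.9 in Dicer-deficient and 48.5, 32.9, 51.5 and 45.6 in control microglia (0.85 ± 0.20, adjusted p = 0.0135), again without overlap.

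Mdc1, the scaffold that binds phosphorylated H2AX, had 47.2, 57.6, 55 and 62.9 in Dicer-deficient and 96, 96, 100.7 and 81.2 in control microglia (-0.74 ± 0.20, adjusted p = 0.0283). Chek2 had 4.60, 6.80, 7.70 and 19.7 in Dicer-deficient and 28.9, 18.2, 19.1 and 40.6 in control microglia (-1.48 ± 0.38, adjusted p = 0.0221). Dicer-deficient library 38 overlapped 2 controls for Chek2, and for Mdc1 the groups did not overlap. In this comparison 8.71% of all genes lay lower and 6.25% higher without overlap, beside 10.5% and 7.89% of the repair genes. The Chek2 call was lost with only the 2 groups fitted and without Dicer-deficient 35, 36 or 37 or control 17 or 33, with an adjusted p of up to 0.0672. The Mdc1 call was lost without Dicer-deficient 35, 36 or 37 or control 17, 31 or 32, with an adjusted p of up to 0.0687. Without control 33, Atm, Mdc1 and Rad50 were lower and Trp53bp1 higher. The other 33 tested genes did not pass. Of 9 tested neutrophil and monocyte markers 3 were higher in these Dicer-deficient libraries, as were 1 of 6 neuron and 1 of 2 astrocyte markers. The astrocyte marker was Slc1a3 (0.94 ± 0.25), and Aldh1l1 was not called (-0.59 ± 0.74). Among microglial markers 2 of 11 were lower, as was 1 of 3 oligodendrocyte markers. The part of these markers in the result was not tested.

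**Figure D5:**
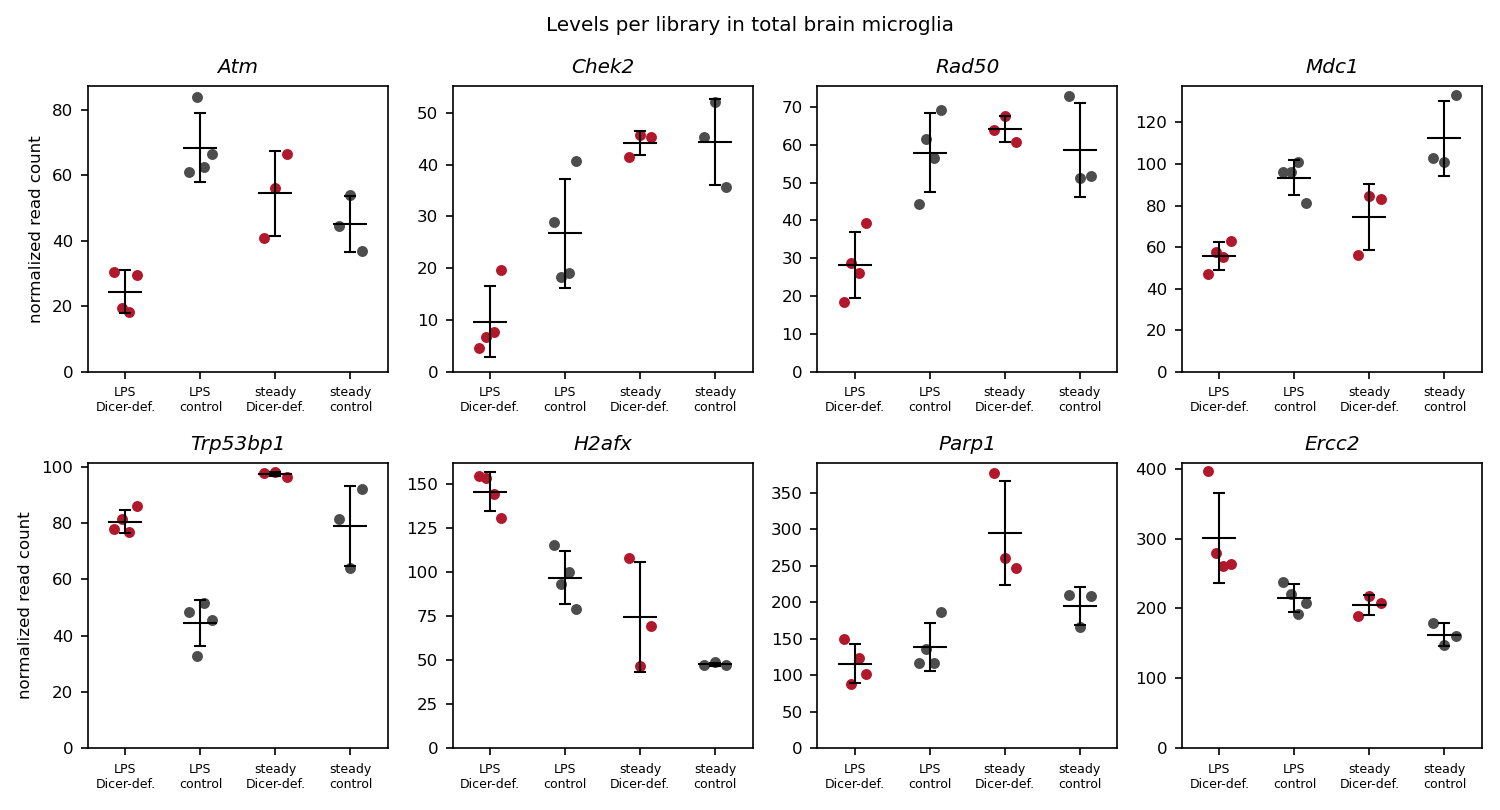
Normalized counts (vertical axes) of 8 genes in total brain microglia, in the order Dicer-deficient after LPS, control after LPS, Dicer-deficient at steady state and control at steady state. Dots are libraries and bars are means ± SD (n = 4, 4, 3 and 3). Atm, Rad50 and Chek2 have their lowest means in Dicer-deficient microglia after LPS.

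LPS was compared with steady state within each genotype, and these comparisons share libraries with the ones above. In Dicer-deficient microglia 6 of 38 fell and 3 rose after LPS against steady state, where 12.8% of all genes fell and 12.2% rose. Parp1 had 150, 88.1, 124.2 and 102.3 after LPS and 246.8, 377.3 and 260.8 at steady state (-1.34 ± 0.23, adjusted p = 0.000408). Chek2 had 4.60 to 19.7 after LPS and 45.3, 41.5 and 45.7 at steady state (-2.26 ± 0.42, adjusted p = 0.000758). Both fell with no overlap of the groups.

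Rad50 had 18.5 to 39.4 after LPS and 60.7, 63.9 and 67.6 at steady state (-1.20 ± 0.28, adjusted p = 0.00414), and Atm had 18.3 to 30.6 against 66.5, 40.8 and 56.2 (-1.13 ± 0.28, adjusted p = 0.00712). Prkdc, the DNA-dependent kinase of end joining, had 33.3, 20.3, 27.8 and 36.1 after LPS and 56.9, 49.2 and 57.1 at steady state (-0.90 ± 0.30, adjusted p = 0.0341). Fancg, a Fanconi core subunit, had 2.80, 9.30, 24.2 and 9.30 after LPS and 30.9, 51.3 and 23.8 at steady state (-1.78 ± 0.51, adjusted p = 0.0166). Fancg overlapped in 1 library and lost its call without steady-state library 11b (adjusted p = 0.0701), and Prkdc lost its call without LPS library 36 or 37 or steady-state library 5 or 12 (adjusted p up to 0.0998).

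H2afx rose, with 154.6, 153.4, 144.3 and 130.7 after LPS and 69.4, 108.2 and 46.6 at steady state (1.03 ± 0.25, adjusted p = 0.00494). Xrcc1 had 107.4, 80.5, 93.4 and 80.9 after LPS and 52.1, 58.3 and 60.9 at steady state (0.65 ± 0.20, adjusted p = 0.0238). Ercc2 had 396.3, 279.6, 261.3 and 264.1 after LPS and 207.3, 189.7 and 218 at steady state (0.53 ± 0.18, adjusted p = 0.0369). The groups did not overlap for these 3 genes. In this comparison 16% of all genes lay higher and 16.4% lower without overlap, beside 7.89% and 15.8% of the 38 repair genes. Of the 3 calls, 2 rested on single libraries. Xrcc1 lost its call without LPS library 35 or 37 or steady-state library 5 (adjusted p up to 0.0905), and Ercc2 without LPS library 35 or 36 or any 1 of the 3 steady-state libraries (up to 0.101).

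In control microglia 1 of 38 rose and 2 fell after LPS, where 7.05% and 7.08% of all genes did. With TMM the genes called higher and lower over the whole table were 1048 and 604, in place of 946 and 951. H2afx had 115.6, 93.4, 100 and 79.2 after LPS and 47.3, 48.8 and 47.1 at steady state (1.00 ± 0.25, adjusted p = 0.0135). Trp53bp1 had 48.5, 32.9, 51.5 and 45.6 after LPS and 81.3, 63.9 and 91.9 at steady state (-0.81 ± 0.22, adjusted p = 0.0204). Rad51ap1 had 3.10, 0, 0 and 4 after LPS and 14.2, 10.1 and 6.90 at steady state (-2.37 ± 0.78, adjusted p = 0.0496). The groups did not overlap. Without overlap 9.94% of all genes lay higher and 11.3% lower, beside 13.2% and 13.2% of the repair genes. H2afx lost its call without steady-state control 9 (adjusted p = 0.0504). Trp53bp1 lost it without LPS control 31 or steady-state control 7 or 9, and with only the 2 groups fitted (up to 0.102). Rad51ap1 lost it in 6 settings that kept all libraries and without LPS control 31 or 32 or any 1 of the 3 steady-state controls (up to 0.159). Without control 33, 1 gene rose and 4 fell, Parp1 and Fancl being added, but calls over the whole table also grew, to 12.3% of all genes higher and 13.2% lower. With all libraries Fancl had 10.3, 12.1, 16.2 and 36.6 after LPS and 27.4, 40.4 and 32.2 at steady state, and Ercc2 had 238.4, 221.4, 192.6 and 208 after LPS and 179.6, 147.2 and 160.8 at steady state. Neither passed.

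The interaction, the LPS effect in Dicer-deficient minus that in control microglia, passed for 0 of 38 genes in limma, where it passed for 0.171% of all genes. At an unadjusted p under 0.05 there were 4 of 38, beside 9.37% of all genes: Atm (-1.73 ± 0.40, adjusted p = 0.0829), Rad50 (-1.19, 0.284), Parp1 (-0.84, 0.385) and Chek2 (-1.49, 0.404), and the next was Ogg1 (-1.09 ± 0.56). edgeR called 0, and DESeq2 called Atm with an adjusted p of 0.00853. For Atm the LPS change was -1.13 in Dicer-deficient and 0.60 ± 0.28 in control microglia.

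Markers of other cells moved with LPS. Of 11 neutrophil and monocyte markers 7 rose in Dicer-deficient microglia, 7 rose and 1 fell in control microglia, and Mpo and Elane were at 0 in all 6 steady-state libraries. The summed level was 387.4 to 3456 in Dicer-deficient and 127 to 3848 in control microglia after LPS, against 22.3 to 389.3 in Dicer-deficient and 10.3 to 37.8 in control microglia at steady state. Summed erythroid markers were 2568 to 6026 in Dicer-deficient and 250.8 to 11150 in control microglia after LPS, against 79.4 to 384.5 in Dicer-deficient and 348 to 2019 in control microglia at steady state. Of 11 microglial markers 6 fell with LPS in each genotype. The part of other cells in the changes of the repair genes was not tested.

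In hippocampus 34 of the 39 genes were tested, with 2 or 3 libraries a group. Parp1 was the only called gene, and in Dicer-deficient microglia only. It had 69.4 and 92.8 after LPS and 215.6, 239.2 and 218.8 at steady state (-1.47 ± 0.41, adjusted p = 0.0459), where 4.61% of all genes were called lower, but the call was lost without any 1 of these 5 libraries and in 4 other settings, with an adjusted p of up to 0.258. The interaction for Parp1 was -0.99 ± 0.61 (adjusted p = 0.912), so the LPS effects in the 2 genotypes were not shown to differ. Control microglia had 110.1 and 127.6 after LPS and 259.1 and 105.7 at steady state. The next smallest p in Dicer-deficient microglia belonged to Fancg, with 19.4 and 3.36 after LPS and 83.5, 28.6 and 50.2 at steady state, and to H2afx, with 93 and 131.9 after LPS and 30.7, 17.4 and 69.7 at steady state. Atr had 104.1 and 24.9 after LPS and 18, 3.74 and 18.6 at steady state, and Ercc2 had 345.7 and 286.6 against 69.8, 244.2 and 41.3. None of these 4 passed. Their groups did not overlap, but 18.3% of all genes lay higher and 17.1% lower without overlap in this comparison. Among the 34 repair genes the shares were 11.8% and 8.82%.

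Markers moved strongly in the comparison that called Parp1. In Dicer-deficient hippocampus after LPS against steady state, 7 of 11 microglial markers were called lower, among them P2ry12 (-3.16) and Siglech (-2.02). Of 7 border macrophage markers 4 were called lower, Pf4 (-6.54), Mrc1 (-5.41), Ms4a7 (-5.13) and F13a1 (-4.49), and 6 of 8 tested neutrophil and monocyte markers were. Among the astrocyte markers Slc1a3 was called higher (1.21) and Aldh1l1 was not called (-0.55 ± 0.91). The astrocyte markers Aqp4, Gfap and Gja1 were too low to test. Summed border macrophage markers were 1.39 and 20.2 after LPS and 306.5 to 450.5 at steady state in Dicer-deficient microglia, and 6.53 and 35.5 against 294.8 and 477.4 in control microglia. Their part in the Parp1 value was not tested.

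Counts in the other hippocampal comparisons were 0 in limma, edgeR and DESeq2. At an adjusted p under 0.05 limma called 0.17% of all genes for Dicer-deficient against control microglia at steady state, 0.307% after LPS, 5.23% for LPS in controls and 0.0162% for the interaction. At an unadjusted p under 0.05 there were 2 of the 34 repair genes at steady state (beside 10.5% of all genes), 1 after LPS (8.49%), 1 for LPS in controls (17.9%) and 1 for the interaction (5.71%), each a smaller share than over all genes. The gene after LPS was Atm, with 37.5 and 14.1 in Dicer-deficient and 102.8 and 78.1 in control microglia (-1.91 ± 0.77, not called). After LPS its Dicer-deficient values lay below every control in both tissues. Of all genes 22% did so in hippocampus and 8.71% in total brain, each tissue counted alone. At steady state Atm had 47.6, 48 and 30 in Dicer-deficient and 30.9 and 32.1 in control hippocampal microglia. Other genes of small p are given as values. At steady state Atr had 18, 3.74 and 18.6 in Dicer-deficient and 58.3 and 54 in control microglia, and Fancc had 33.8, 15.6 and 17 against 10.3 and 0.783. Lig3 had 210.3, 69.1 and 119.1 in Dicer-deficient and 55.5 and 83 in control microglia, and Lig4 had 3.17, 22.4 and 48.6 against 30.2 and 93.1. The groups were apart for Atr and Fancc and overlapped for Lig3 and Lig4. At steady state 13.7% of all genes lay lower and 10.5% higher without overlap, beside 8.82% and 2.94% of the repair genes. After LPS Xrcc6 had 84.7 and 31.6 in Dicer-deficient and 139.5 and 126.9 in control microglia, Rad50 had 12.5 and 27.6 against 47.3 and 54, Msh6 had 54.1 and 39.7 against 21.2 and 17.1, and Ung had 0 and 3.36 against 8.16 and 5.08. The groups did not overlap for these 4 genes, with 2 libraries each. In this comparison 22% of all genes lay lower and 16.4% higher without overlap, beside 32.4% and 8.82% of the repair genes. For LPS in controls the gene with p under 0.05 was Xrcc6, with 139.5 and 126.9 after LPS and 32.2 and 54 at steady state. Fancc had 26.9 and 17.1 after LPS and 10.3 and 0.783 at steady state, Fancl had 2.45 and 15.9 against 26.1 and 43.1, and Msh6 had 21.2 and 17.1 against 56.2 and 36.8, none of them called. For the interaction the gene was Atm (-2.28 ± 1.04), followed by Xrcc6 (-1.92 ± 0.89), Xrcc5 (2.31 ± 1.20) and Atr (2.41 ± 1.40).

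Summed neutrophil and monocyte markers in hippocampus were 52.8 to 162.8 in Dicer-deficient and 12.1 to 1253 in control microglia after LPS, and 7568 to 7715 in Dicer-deficient and 477.8 to 2506 in control microglia at steady state. Their part in these values was not tested.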

How the data were processed

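Per the labels' protocols, RNA of sorted microglia was captured with oligo(dT) beads. Per the submitters' processing notes, bcl2fastq, HISAT 0.1.5, SAMtools, HOMER, DESeq2 and the build mm9 were used, in no stated role. The deposited values are signal: normalized counts, which the authors obtained by scaling reads per gene with a single factor for each library. That factor was recovered from the lowest values: at least 99.94% of the values above 0 per library were whole reads within a tolerance of 0.1 read. Libraries held 898451 to 4573063 reads, which bounds counting error only. All columns were mapped to samples by their names.

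The design planned edgeR for counts and limma for normalized values. limma 3.58.1 (R 4.3.3, variance trend) was fitted to log2(value + 1), with 1 mean per group and 1 fit per table, the newborn comparison on its own 5 libraries and the stage comparisons on the controls. A gene was tested if it reached a value of 1 in a number of libraries equal to the smallest group, and p-values were adjusted by Benjamini-Hochberg over all of them, in 15 comparisons. edgeR 4.0.16 and DESeq2 1.42.0 were run on the recovered reads as alternatives, and scripts were tested on simulated data. Further alternatives were pseudocounts of 0.1 and 5, no filter, a fit of the compared groups alone, a block for the replicate number and leaving out each library.

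Called members are given per library, in the stage comparisons without each adjusted p, and where fewer than 5 were called the smallest p fill up to 5 as values. The members and gene lists were chosen with earlier results of these data known, and some listed genes are not reported here. Promoters came from RefSeq on GRCm38.p6, for their letters only, since the authors' tables hold no coordinates.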

Additional observations from a re-analysis of the deposited data

Results flagged for a closer look

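In groups of 4 or 5 libraries, 4 of 108 tested had 1 library that stood apart from the rest by its gap to the nearest value, relative to the range of the group. Chance flags about 1 in 20 groups. Ercc2 had 396.3 normalized counts in Dicer-deficient library 35 of total brain after LPS and 261.3 to 279.6 in the other 3 libraries of that group. Chek2 had 60.3 in adult control 1 of the stage table and 41.3 to 44 in the other 4, and Xrcc6 had 71.1 in the same library and 43.9 to 49.8 in the others. Xrcc1 had 135.2 in P0 control 1 and 76.7 to 87.4 in the other 4 P0 controls.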

How the results depend on the processing

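Of 1813 values of named genes under alternatives, 1724 kept their direction and their side of the threshold, 72 lost the call, 17 gained it and 0 changed direction. Of the 72, 55 came from leaving out a library. Newborn calls, 0 as reported, became 1 with a pseudocount of 5 (Xrcc5), 1 with RLE scaling, 4 with the replicate number as a block and 2 with all 5 P0 controls, which were added after seeing the data, and ran from 0 to 20 with 1 library left out. Calls ranged from 3 to 5 for Dicer-deficient against control total brain after LPS with 1 library left out. For LPS in total brain controls they were 1 with only the groups compared and 0 to 5 with a library left out. The total brain interaction gave 1 call with DESeq2. Parp1 in hippocampus lost its call (0) with a pseudocount of 0.1, without the filter, and with TMM and RLE, and in each setting without 1 library (0 to 0). For P0 against E14 a pseudocount of 5 gave 7, a fit of these 2 groups alone gave 7, and the count was 2 to 6 with 1 library left out. The cause of these differences was not tested.

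Over all genes, newborn calls were 194, against 396 with TMM, 489 with RLE, 572 with DESeq2, 593 with the block, 1120 with all 5 controls, 108 with a pseudocount of 0.1 and 0 to 4716 with a library left out. DESeq2 gave 552 in place of 292 for total brain genotypes at steady state, 165 in place of 23 for the total brain interaction (52 with a pseudocount of 5), 213 in place of 21 for hippocampus at steady state (8 to 45 in the other settings with all libraries), 210 in place of 38 after LPS (7 with those groups alone), 33 in place of 2 for the hippocampal interaction and 1052 in place of 647 for LPS in hippocampal controls. For LPS in total brain controls, those groups alone gave 1048 in place of 1897, and leaving out control 33 gave 3388.

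Same-numbered libraries did not deviate together where numbers were shared (correlations of -0.205 to 0.0865), so the numbers were not taken as pairs. With the number as a block, newborn calls were 4, P0 against E14 4, adult against P0 23 and adult against E14 26. No paired analysis was possible because the total brain and hippocampus groups share fewer than 2 numbers. Depth limits genes at a few reads, above all in the adult table, where 1 read was worth 2.59 to 5.37 normalized counts.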
